A study of Homo sapiens with 12 samples.

Results

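INHBE and the activin system were described by 10 genes, INHBE, INHBA, INHBB, INHA, FST, FSTL3, ACVR1B, ACVR2A, ACVR2B and TGFBR3, taken by symbol from a table of 57187 genes. All 10 were found and all 10 passed the filter on low counts that left 17211 genes. INHBE was singled out on its change between SIVA-D160N and parental cells and on how that change differed between breast and ovarian lines, so its values are given as a description, without a test. The other 9 were taken for their place in the pathway, with earlier results of these data known.

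Activins and inhibins are secreted dimers of the TGF-beta family. They are built from beta subunits (INHBA, INHBB, INHBC and INHBE) and, in inhibins, from 1 beta subunit and the alpha subunit INHA. Activins bind the type II receptors ACVR2A and ACVR2B, which recruit the type I receptor ACVR1B and so pass the signal to SMAD2 and SMAD3, while follistatin (FST) and follistatin-like 3 (FSTL3) trap the ligand and the coreceptor betaglycan (TGFBR3) helps inhibin to block the type II receptors. INHBE, which encodes the beta-E subunit, is best known from liver and as a gene switched on by the integrated stress response.

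RNA sequencing was done on 4 human cancer cell lines, MDA-MB-231 (a triple-negative breast line) and HCC1954 (a breast line with amplified ERBB2) and, from ovary, OVCAR8 and SKOV3 (the latter also with amplified ERBB2). Each line had 1 library labelled parental, 1 from cells carrying wild-type SIVA1 (SIVA-WT) and 1 from cells carrying the aspartate-to-asparagine mutant (SIVA-D160N), so there were 12 libraries and 4 per condition. SIVA1 encodes a small adaptor protein of apoptosis signalling. The transfectants were stable polyclonal pools made by lipofection of a linearized vector and hygromycin selection, and all cells grew in RPMI-1640 with serum. The labels call the control cells parental with no treatment, whereas the study's own text also calls them empty vector, so whether the controls went through selection cannot be told apart here. With 1 library per line and condition, no change inside a line has a replicate check, and the 4 lines are the replicates of a condition.

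Total counts per library ran from 35791455 to 45890398, and a limit of 3 counts corresponds to between 0.0661 and 0.0850 CPM, the scaling of counts to the size of each library. SIVA1 itself was higher in both transfectants than in the parental library in all 4 lines. Its CPM was 28.0, 80.4 and 67.7 in parental, SIVA-WT and SIVA-D160N cells of MDA-MB-231, 66.1, 177 and 161 in OVCAR8, and 52.4, 106 and 111 in SKOV3. The HCC1954 parental library stood apart with 0 SIVA1 counts, against 37.9 and 26.4 CPM in its transfectants, so the fitted INHBA, FST and FSTL3 changes between SIVA-D160N and parental cells are also given without it. ERBB2 was at 5695 CPM or more in every HCC1954 and SKOV3 library and at 77.9 CPM or less elsewhere, and PAX8, a marker of the ovarian lines, was at 61.1 CPM or more in OVCAR8 and SKOV3 and at 3.41 or less in the breast lines. Other defining markers were low where the label would place them, with MUC16 at 0.0273 CPM or less in OVCAR8 and EPCAM at 0.766 CPM or less in SKOV3. The summed level of 3 hepatocyte markers (ALB, APOA1 and TTR) was at most 0.301 CPM in any library, with TTR at 0 in all 12.

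The cell lines differed widely in which activin genes they expressed. To compare genes with each other, CPM was divided by exon length, which gives RPKM (CPM per kilobase of exon, with lengths from an annotation that need not be the one used for counting), and the 3 libraries of a line were averaged with their SD (n = 3, 1 library of each condition). In MDA-MB-231 the beta subunit with the highest RPKM was INHBE (6.70 ± 7.05), while INHBA was at 0.0020 ± 0.0017 and INHBB at 0.471 ± 0.170. That mean hides a spread between conditions, with INHBE at 14.4 RPKM in the parental, 5.07 in the SIVA-WT and 0.602 in the SIVA-D160N library, the last close to the 0.564 of INHBB. In HCC1954 it was INHBB (44.04 ± 4.71), followed by INHBA (9.04 ± 6.77), and INHBE was at 0.010 ± 0.012. In OVCAR8 it was INHBA (13.1 ± 1.38), ahead of INHBB (3.26 ± 0.217). In SKOV3 all 3 beta subunits were under 1 RPKM, with INHBA at 0.912 ± 0.0831, and the antagonist FSTL3 was at 107 ± 24.2 RPKM.

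**Figure D1:**
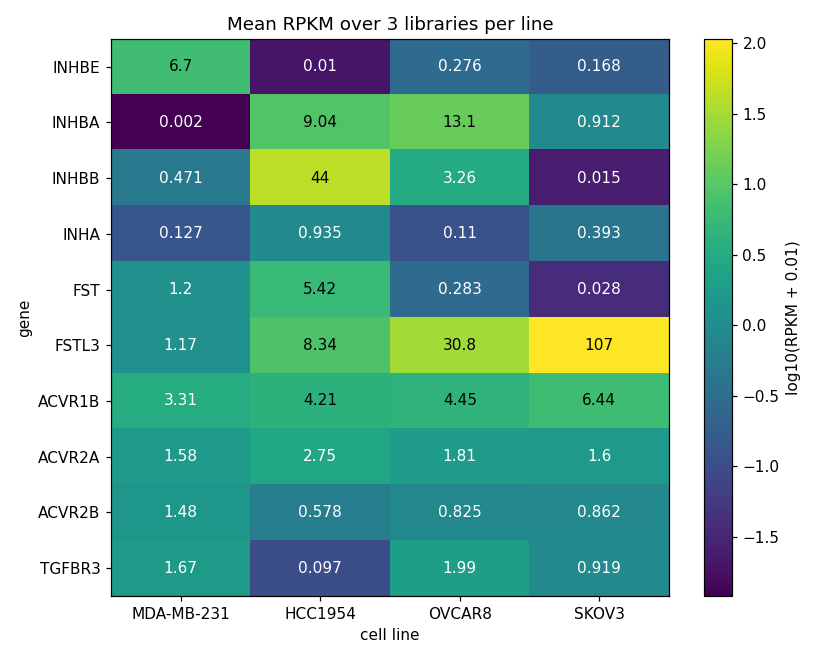
Mean RPKM of the 10 genes (rows) in the 4 lines (columns), averaged over the 3 libraries of a line and colored on a log10(RPKM + 0.01) scale. The subunit genes and antagonists change from dark to bright between columns, with FSTL3 running from 1.17 in MDA-MB-231 to 107 in SKOV3, whereas ACVR1B stays between 3.31 and 6.44.

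Each of the 9 genes other than INHBE differed between the 4 lines by edgeR's quasi-likelihood F test, with a Benjamini-Hochberg adjusted p (FDR) over all 17211 genes of at most 0.000129, but 93.9% of all genes tested did so as well. The libraries of a line were its different conditions and not repeats of the same condition, so tests between lines are against the residual of the fit. In the 6 pairs of lines, 47 of 54 tests of these genes had an FDR under 0.05, where the share of all genes was 70.8% for MDA-MB-231 and HCC1954, 64.3% for MDA-MB-231 and OVCAR8, 68.5% for MDA-MB-231 and SKOV3, 70.6% for HCC1954 and OVCAR8, 69% for HCC1954 and SKOV3 and 70.2% for OVCAR8 and SKOV3. INHBA, INHBB, FST and FSTL3 differed in all 6 pairs. Their CPM spanned the widest range, and their order was not shared. INHBA ran from OVCAR8 (109 ± 11.4 CPM) over HCC1954 (74.9 ± 56.1) and SKOV3 (7.55 ± 0.689) to MDA-MB-231 (0.0164 ± 0.0143), with HCC1954 and OVCAR8 the closest neighbours (log2 difference -0.74, SE 0.29, FDR 0.0404). INHBB ran from HCC1954 (141 ± 15.1 CPM) over OVCAR8 (10.5 ± 0.695) and MDA-MB-231 (1.51 ± 0.545) to SKOV3 (0.0475 ± 0.0490).

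The receptors were more even. ACVR1B, the type I receptor, lay between 18.7 ± 0.636 CPM in MDA-MB-231 and 36.4 ± 1.05 in SKOV3, and HCC1954 and OVCAR8 were not told apart (FDR 0.505). ACVR2A was highest in HCC1954 (17.7 ± 1.21 CPM) and between 10.2 and 11.7 CPM in the other lines, where none of the 3 pairs differed (FDR 0.171, 0.918 and 0.196). ACVR2B was highest in MDA-MB-231 (23.2 ± 1.57 CPM) and lowest in HCC1954 (9.07 ± 0.633), and OVCAR8 and SKOV3 were not told apart (FDR 0.802). TGFBR3 was the exception among the receptors, at 0.829 ± 0.242 CPM in HCC1954 against 7.88 ± 1.04 in SKOV3, 14.4 ± 4.38 in MDA-MB-231 and 17.1 ± 2.65 in OVCAR8, the last pair not differing (FDR 0.325). INHA was low everywhere, from 0.179 ± 0.124 CPM in OVCAR8 to 1.53 ± 0.174 in HCC1954, and MDA-MB-231 and OVCAR8 were not told apart (FDR 0.686).

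**Figure D2:**
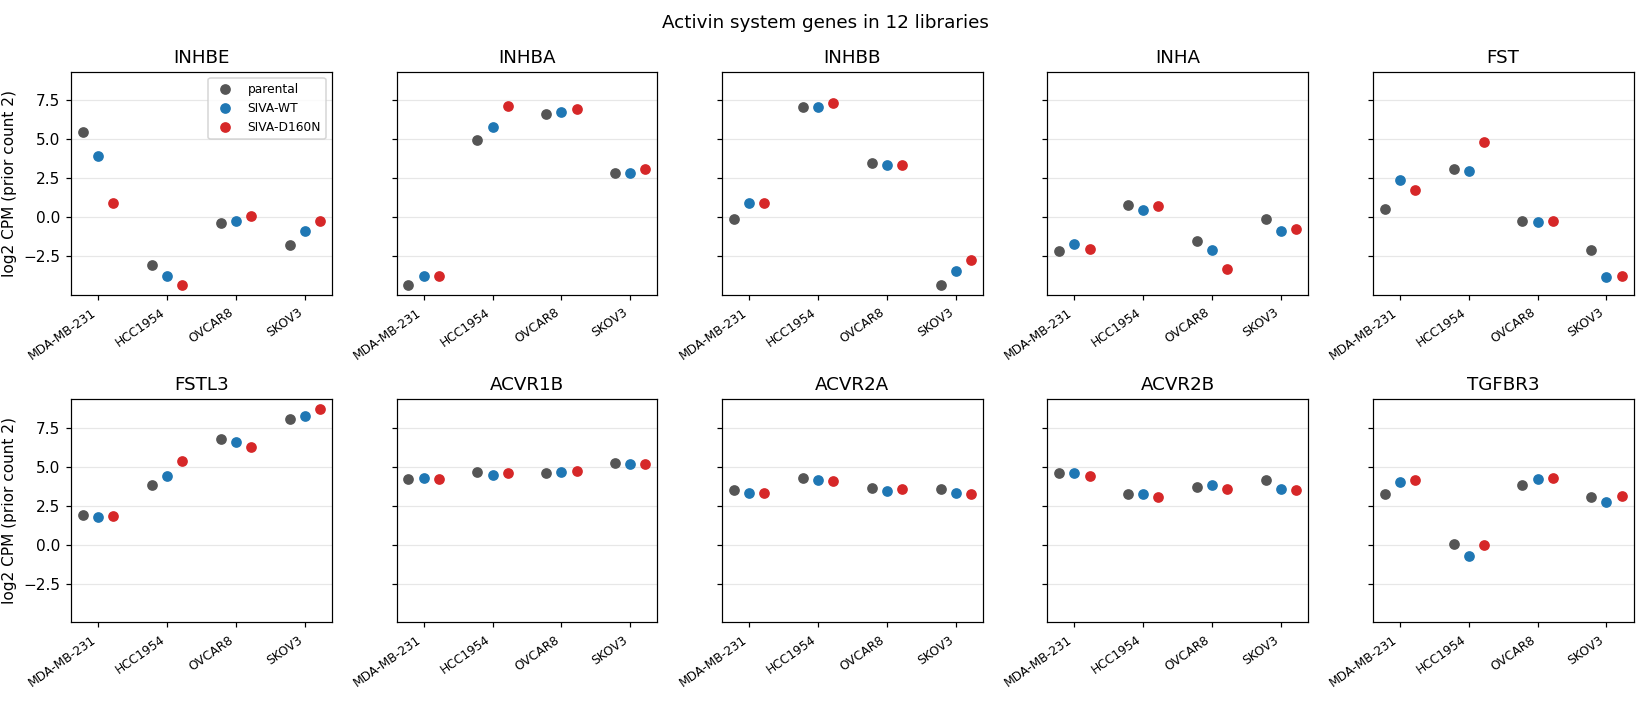
Log2 CPM with a prior count of 2 (y axis) of each gene in the 12 libraries, grouped by cell line and colored by condition. INHBE falls from 43.9 to 1.83 CPM in MDA-MB-231 and is near the bottom of the axis in HCC1954, INHBA and FST stand highest in the HCC1954 SIVA-D160N library among the 3 of that line, and ACVR1B, ACVR2A and ACVR2B span less of the axis than TGFBR3, which is low in HCC1954. A library with 0 counts is drawn at the floor that the prior count sets.

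INHBE (ENSG00000139269, RefSeq GRCh38.p14 chr12:57455307-57458025) was lower in both transfectants of MDA-MB-231. Its counts there were 1994 in parental, 613 in SIVA-WT and 76 in SIVA-D160N cells, or 43.9, 15.4 and 1.83 CPM. The SIVA-D160N library was thus 24.0-fold below the parental one (ratio 0.0417, exact 95% interval 0.0328 to 0.0525) and 8.43-fold below the SIVA-WT one (ratio 0.119, 0.0923 to 0.151). Intervals of ratios within a line cover counting error only. Of the 17211 genes tested, INHBE ranked as number 2 from the lowest in the log2 ratio of SIVA-D160N to parental MDA-MB-231 cells. Since INHBE was singled out on its change between these conditions, an extreme rank follows from the choice and is a description only.

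In the ovarian lines INHBE ran the other way at far lower counts. SKOV3 had 9, 22 and 33 counts in parental, SIVA-WT and SIVA-D160N cells, or 0.238, 0.492 and 0.808 CPM, and the SIVA-D160N library was 3.40-fold above the parental one (1.59 to 8.07). OVCAR8 had 27, 30 and 38 counts, or 0.738, 0.790 and 0.994 CPM, and the ratio of 1.35 had an interval (0.801 to 2.29) that includes 1. HCC1954 had 3, 1 and 0 counts, at or under the limit in each library, so no ratio was read there. By level the order was MDA-MB-231 (20.4 ± 21.5 CPM, n = 3), OVCAR8 (0.841 ± 0.135), SKOV3 (0.512 ± 0.286) and HCC1954 (0.0315 ± 0.0365). The ranges of OVCAR8 and SKOV3 overlap, and even the lowest MDA-MB-231 library was above every library of another line. INHBC, the neighbouring beta-C subunit gene, did not pass the filter and had 14, 6 and 10 counts in MDA-MB-231.

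The genes whose log2 CPM followed INHBE most closely over the 12 libraries were ZCCHC8 (Pearson r = 0.973), SARS, a seryl-tRNA synthetase gene (0.972), NAA30 (0.965), RBM39 (0.962) and RP11-933H2.4 (0.962). All 5 were highest in the MDA-MB-231 parental library, SARS for example with 56219, 36122 and 25401 counts in parental, SIVA-WT and SIVA-D160N cells of that line. After each line's mean was subtracted, the closest were LMO4 (0.976), BEST1 (0.966), FKBP9 (0.956), B4GALT1 (0.955) and TSEN15 (0.953). BEST1 went from 100 to 30 and 2 counts across the 3 MDA-MB-231 libraries. These correlations describe 12 points that share 4 lines, and INHBE itself spread most in MDA-MB-231.

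The comparison of SIVA-D160N with parental cells asked which genes differed between these cells across the 4 lines. It holds the higher SIVA1 level and the transfection together with the mutation, which it cannot tell apart. Of the 9 tested activin genes 0 passed the thresholds of edgeR's quasi-likelihood test (FDR under 0.05 and a log2 fold change of at least 1.5 either way), where 0.00581% of all genes did. At an unadjusted p under 0.05 there was 1 of the 9, INHBA, where 14.2% of all genes were. DESeq2 and limma-voom also called 0, with 3 genes each at an unadjusted p under 0.05, where 13.5% and 16.5% of all genes were.

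INHBA (ENSG00000122641), the beta-A subunit of activin A, was higher with SIVA-D160N in the 3 lines that expressed it. In HCC1954 its counts were 1293, 2434 and 4870 in parental, SIVA-WT and SIVA-D160N cells, or 30.8, 56.0 and 138 CPM. In OVCAR8 they were 3621, 4013 and 4635 (99.0, 106 and 121 CPM), in SKOV3 270, 321 and 341 (7.13, 7.18 and 8.35 CPM), and in MDA-MB-231 0, 1 and 1. HCC1954 carried most of the difference, with a ratio of SIVA-D160N to parental of 4.48 (4.21 to 4.77), against 1.23 (1.17 to 1.28) in OVCAR8 and 1.17 (0.995 to 1.38) in SKOV3.

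The fitted INHBA log2 fold change was 0.93 (SE 0.30, edgeR FDR 0.228), and it fell to 0.27 (FDR 0.575) without the HCC1954 libraries and to 0.47 (FDR 0.489) without the HCC1954 parental library alone. When all 34909 genes with at least 1 count were fitted, the FDR was 0.00351 at a log2 fold change of 0.94, still short of the fold threshold. The study lists INHBA in a pathway table drawn from its own differentially expressed genes of this comparison, whereas here it was not called. INHBA was thus chosen there on these same libraries, so its direction is not independent evidence. Its gene overlaps the antisense gene INHBA-AS1, and the strand setting of the counting is not given in the sources used here, so reads of the pair may not be separated.

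The breast-to-ovarian difference of the same change was also tested for INHBA, as an interaction. The log2 fold change was lower by 1.90 in the ovarian than in the breast lines (log2 difference -1.90, SE 0.24), with an edgeR FDR of 0.162 over all genes. By edgeR 0 of the 9 genes passed an FDR under 0.05 (0.00581% of all genes did) and 1 had an unadjusted p under 0.05, where 5.08% of all genes did. The INHBA call depended on the tool, at an FDR of 0.174 with limma-voom, 0.0323 with DESeq2 and 0.000358 with edgeR on all genes with at least 1 count. Since MDA-MB-231 had at most 1 INHBA count per library, HCC1954 supplies the breast value. Without the HCC1954 parental library the difference was -3.39 with an FDR of 0.751, resting on those few MDA-MB-231 counts, and without HCC1954 no breast value can be read. Tissue and line cannot be told apart here.

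FST (ENSG00000134363), the main soluble trap for activin, was higher with SIVA-D160N in both breast lines. Its counts in parental, SIVA-WT and SIVA-D160N cells were 365, 345 and 994 in HCC1954 (8.69, 7.94 and 28.2 CPM) and 65, 204 and 139 in MDA-MB-231 (1.43, 5.14 and 3.35 CPM). The ratio to parental was 3.24 (2.87 to 3.66) in HCC1954 and 2.34 (1.73 to 3.20) in MDA-MB-231, where SIVA-WT was higher still at 3.59 (2.70 to 4.82). OVCAR8 had 29, 29 and 30 counts, with no difference beyond counting error, and SKOV3 had 7, 1 and 1. The fitted log2 fold change was 0.95 (SE 0.52, FDR 0.439) and the interaction had an FDR of 1. Without the HCC1954 libraries the log2 fold change was 0.33 (FDR 0.892), and without the HCC1954 parental library alone it was 0.80 (FDR 0.694).

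FSTL3 (ENSG00000070404), a second secreted activin antagonist, was higher with SIVA-D160N in HCC1954, like INHBA and FST, and in SKOV3. HCC1954 had 585, 914 and 1445 counts (13.9, 21.0 and 41.0 CPM) and SKOV3 9985, 13713 and 16618 (264, 307 and 407 CPM), with SIVA-D160N to parental ratios of 2.94 (2.67 to 3.24) and 1.54 (1.504 to 1.58). In OVCAR8 it was lower, from 3983 to 3574 and 2949 counts (109, 94.1 and 77.1 CPM, ratio 0.709, 0.675 to 0.743). MDA-MB-231 had 165, 136 and 147 counts (ratio 0.976, 0.776 to 1.23). The lines therefore disagreed in direction, and the fitted log2 fold change was 0.44 (SE 0.25, FDR 0.456), or 0.05 (FDR 0.962) without HCC1954, 0.17 (FDR 0.822) without its parental library and 0.78 (FDR 0.200) without OVCAR8.

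INHBA, FST and FSTL3 were the 3 of 9 genes with readable counts in HCC1954 whose SIVA-D160N library was at least 2-fold above parental on the CPM scale with a prior count of 2, and 4.73% of all genes were. None of the 9 was 2-fold lower, where 5.51% of all genes were. Against the SIVA-WT library of HCC1954, which does not use the parental one, 2 of the 9 (INHBA and FST) were at least 2-fold higher, and 2.44% of all genes were. INHBA and FST thus both rose in the SIVA-D160N library of HCC1954, although FST did not rise with SIVA-WT there. For these 2 genes the 250 bases before the RefSeq start sites (GRCh38.p14, read on the gene's strand, 5′ to 3′) are shown. Capitals mark matches to the AP-1 motif TGANTCA or the TATA box TATAAA. INHBA is at chr7:41703091-41703340 on the minus strand and FST at chr5:53480379-53480628 on the plus strand.
INHBA: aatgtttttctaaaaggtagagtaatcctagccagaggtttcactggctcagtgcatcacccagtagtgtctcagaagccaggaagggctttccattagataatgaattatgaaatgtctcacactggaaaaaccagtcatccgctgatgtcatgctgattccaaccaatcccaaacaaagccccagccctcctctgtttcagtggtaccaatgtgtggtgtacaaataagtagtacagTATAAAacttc
FST: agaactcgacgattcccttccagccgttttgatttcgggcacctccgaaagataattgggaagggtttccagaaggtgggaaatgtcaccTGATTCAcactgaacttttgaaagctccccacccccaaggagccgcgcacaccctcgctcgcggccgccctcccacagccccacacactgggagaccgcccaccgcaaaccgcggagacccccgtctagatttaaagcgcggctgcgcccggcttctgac

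The RefSeq table held a promoter for 9 of the 10 members, all but INHBE. Both strands were searched for TGACGTCA (the cyclic AMP response element), TGANTCA (AP-1), TGATGNAA (the amino acid response element of stress genes), AGCCAGACA (the SMAD-binding CAGA box) and TATAAA, and matches of different motifs could overlap. With positions counted back from the start site, FST had TGATTCA at -160 and INHA had TGAGTCA at -230, a motif that 6.57% of all 35116 promoters of that length hold. INHBA had TATAAA at -11 and FSTL3 had it on the other strand at -29, against 10.7% of all promoters. The other motifs, held by 1.65%, 3.14% and 0.231% of promoters in the order above, had no match in any of the windows of the 9 genes. A match is only a description of these letters.

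**Figure D3:**
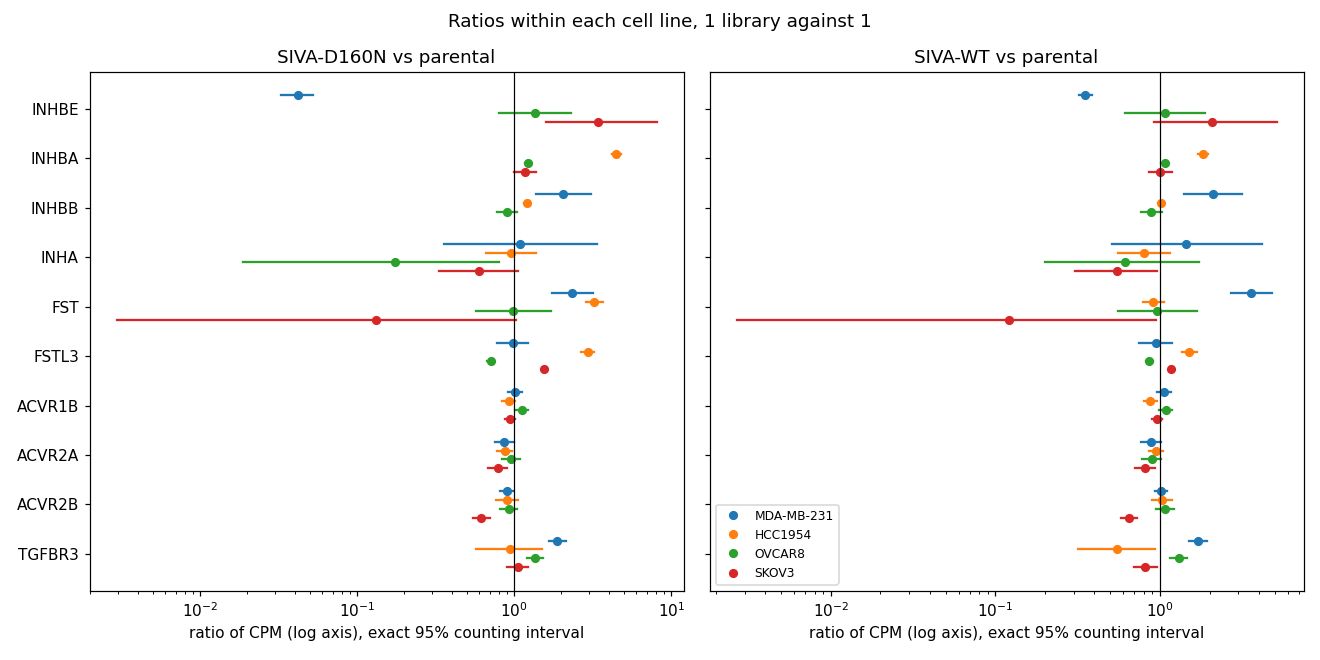
Ratio of CPM (log x axis) of each gene in SIVA-D160N (left) or SIVA-WT (right) to the parental library of the same line, with exact 95% intervals for counting error. INHBE in MDA-MB-231 lies far left at 0.0417 and 0.352, INHBA, FST and FSTL3 in HCC1954 lie at 2.94 to 4.48 on the left panel, and ACVR1B lies between 0.876 and 1.12 in both panels, while TGFBR3 in MDA-MB-231 (1.88 and 1.71) and ACVR2B in SKOV3 (0.618 and 0.650) lie away from 1. Ratios with 0 counts on either side or at most 3 on both are not drawn.

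The type II receptors were lower with SIVA-D160N than in parental cells in all 4 lines, by small amounts. With SIVA-WT, ACVR2A was also lower in all 4. The SIVA-WT to parental ratio of ACVR2B was 0.65 (0.58 to 0.73) in SKOV3. In MDA-MB-231, HCC1954 and OVCAR8 that ratio was 1.01, 1.03 and 1.08, with intervals that include 1. ACVR2B (ENSG00000114739) had 678, 521 and 452 counts in parental, SIVA-WT and SIVA-D160N cells of SKOV3 (17.9, 11.7 and 11.1 CPM), and its SIVA-D160N to parental ratio was 0.618 (0.547 to 0.697) there. In the other lines the ratio was 0.894 (MDA-MB-231), 0.900 (HCC1954) and 0.921 (OVCAR8), and the last pair had intervals that include 1. Its log2 fold change was -0.29 (SE 0.13, FDR 0.359, edgeR), or -0.14 without SKOV3.

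ACVR2A (ENSG00000121989) had ratios of 0.785 (0.683 to 0.902) in SKOV3, 0.868 (0.759 to 0.991) in MDA-MB-231, 0.873 (0.783 to 0.973) in HCC1954 and 0.953 (0.834 to 1.09) in OVCAR8. Its counts were 452, 433 and 383 in SKOV3 and 505, 389 and 400 in MDA-MB-231, 792, 778 and 581 in HCC1954 and 451, 417 and 449 in OVCAR8, in the same order of conditions. Its log2 fold change was -0.21 (SE 0.11, FDR 0.409, edgeR). With SIVA-WT against parental it was -0.182 (SE 0.105, FDR 0.9998, edgeR), and for SIVA-D160N against SIVA-WT it was -0.023 (SE 0.105, FDR 0.983, edgeR). Neither change from parental was called. Both use the same parental libraries, so their like direction is not 2 separate observations. Of all genes 8.4% were lower with SIVA-D160N than in parental cells in all 4 lines, so 2 of the 9 genes with that pattern are read against that share. ACVR2A overlaps ORC4 and ACVR2B overlaps ACVR2B-AS1, with the same limit on strand as for INHBA.

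ACVR1B (ENSG00000135503), the type I receptor, was close to level, with SIVA-D160N to parental ratios from 0.922 (0.841 to 1.01) in HCC1954 to 1.12 (1.02 to 1.23) in OVCAR8. Its log2 fold change was -0.01 (SE 0.09, FDR 0.980), the narrowest error among the 9 genes. Its counts per library ran from 764 to 1619.

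TGFBR3 (ENSG00000069702), the inhibin coreceptor, was higher in both transfectants of MDA-MB-231 and OVCAR8. Its counts were 426, 635 and 732 in MDA-MB-231 (9.38, 16.0 and 17.7 CPM) and 513, 691 and 724 in OVCAR8 (14.0, 18.2 and 18.9 CPM), with SIVA-D160N to parental ratios of 1.88 (1.67 to 2.13) and 1.35 (1.20 to 1.52). SKOV3 had 312, 300 and 355 counts and HCC1954 42, 24 and 33, with SIVA-D160N ratios of 1.05 and 0.935 whose intervals include 1. The SIVA-WT libraries of these lines were below parental, with ratios of 0.81 (0.69 to 0.96) in SKOV3 and 0.55 (0.32 to 0.93) in HCC1954. The log2 fold change was 0.36 (SE 0.21, FDR 0.469), or 0.16 without MDA-MB-231.

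INHBB (ENSG00000163083), the beta-B subunit, was slightly higher with SIVA-D160N in HCC1954, where it was most abundant. HCC1954 had 5530, 5792 and 5597 counts (132, 133 and 159 CPM), a SIVA-D160N to parental ratio of 1.20 (1.16 to 1.25), and OVCAR8 had 412, 380 and 387 counts (ratio 0.899, 0.780 to 1.04). MDA-MB-231 had 40, 73 and 75 counts, a ratio of 2.05 (1.38 to 3.09), and SKOV3 had 0, 2 and 4. The log2 fold change was 0.29 (SE 0.21, FDR 0.557), or 0.12 without MDA-MB-231 and 0.56 without OVCAR8.

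INHA (ENSG00000123999), the alpha subunit that turns a beta subunit into inhibin, had few counts. They were 8, 10 and 8 in MDA-MB-231, 70, 58 and 56 in HCC1954, 11, 7 and 2 in OVCAR8 and 34, 22 and 22 in SKOV3. In OVCAR8 the ratio of SIVA-D160N to parental was 0.174 (0.0187 to 0.797), on 2 against 11 counts. The fitted log2 fold change of INHA was -0.52 (SE 0.34, FDR 0.512), or -0.27 without OVCAR8 and -0.80 without HCC1954.

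The comparison of SIVA-WT with parental cells shares its 4 parental libraries with the one above. By edgeR, 0 of the 9 genes passed the thresholds (0% of all genes did), and 0 had an unadjusted p under 0.05, where 2.57% of all genes did. DESeq2 and limma-voom also called 0, with 0 at an unadjusted p under 0.05, where 2.26% and 3.24% of all genes were. The FDR was 0.9998 for each of the 9. INHBA was at 0.28 (SE 0.29) on the log2 scale, FST at 0.50 (SE 0.54) and FSTL3 at 0.09 (SE 0.25). Inside HCC1954 the SIVA-WT to parental ratio was 1.82 (1.70 to 1.95) for INHBA and 1.51 (1.36 to 1.68) for FSTL3, both smaller than with SIVA-D160N, and 0.913 (0.786 to 1.06) for FST.

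SIVA-D160N and SIVA-WT cells were compared directly to ask what the mutation adds to overexpression. Here too 0 of the 9 genes passed by edgeR (0% of all genes did), and 1 had an unadjusted p under 0.05, where 6.77% of all genes did, while DESeq2 and limma-voom called 0 with 0 under that p, where 6.18% and 8.33% of all genes were. The 1 gene was again INHBA, with a log2 fold change of 0.65 (SE 0.29, FDR 0.732, edgeR), or 0.21 (FDR 0.9999) without HCC1954. HCC1954 showed the wider ratios, at 2.47 (2.35 to 2.59) for INHBA, 3.55 (3.14 to 4.02) for FST and 1.95 (1.79 to 2.12) for FSTL3. In MDA-MB-231 FST was lower in SIVA-D160N than in SIVA-WT cells (ratio 0.652, 0.522 to 0.813).

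**Figure D4:**
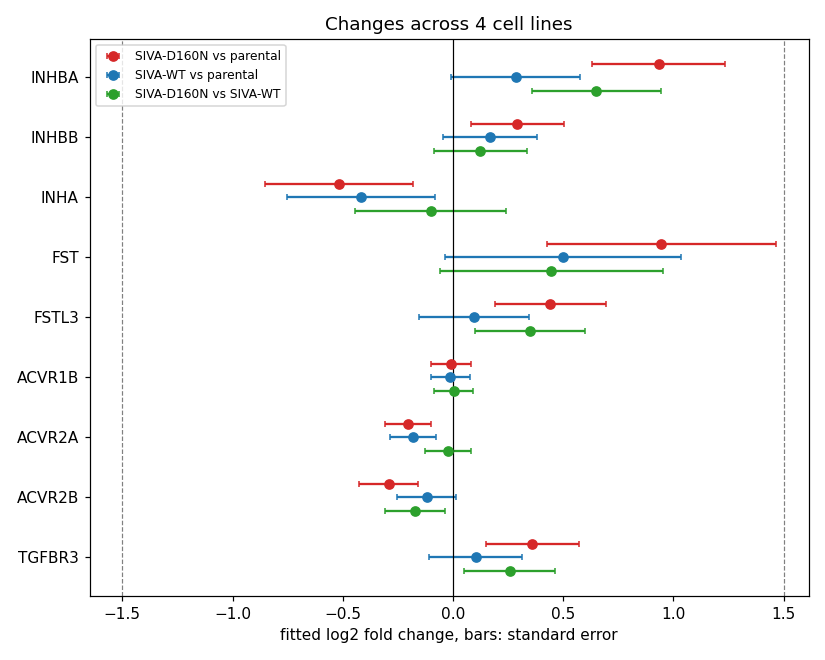
Fitted log2 fold changes across the 4 lines (x axis) of the 9 tested genes in the 3 comparisons, with bars of 1 standard error. INHBA (0.93) and FST (0.95) lie farthest to the right for SIVA-D160N against parental, and no gene reaches the dashed lines at the fold threshold of 1.5.

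The rest of the activin and TGF-beta pathway was read from a list of 54 further ligands, receptors, inhibitors, convertases, SMADs and targets, of which 45 passed the filter. Between SIVA-D160N and parental cells 0 of the 45 were called by edgeR, with 2 higher and 1 lower at an unadjusted p under 0.05, a smaller share than the 14.2% of all genes. Their median log2 fold change was -0.02, against -0.01 for all genes. DESeq2 and limma-voom called 0, with 2 and 4 at that p.

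Genes of the list with small p included LTBP2, which encodes a matrix protein related to the TGF-beta binding proteins (-0.74, SE 0.27, FDR 0.274), TGFB2 (0.92, SE 0.41, FDR 0.344) and FSTL1 (0.40, SE 0.19, FDR 0.372). The ligand TGFB2 was at 87.2, 153 and 188 CPM in parental, SIVA-WT and SIVA-D160N cells of HCC1954, at 2.93, 6.15 and 5.65 CPM in MDA-MB-231 and at 1.96, 5.52 and 9.47 CPM in SKOV3. OVCAR8 ran the other way, at 1.75, 0.895 and 0.419 CPM, so SIVA-D160N was above parental in 3 of 4 lines. In the SKOV3 parental library COL1A1, 1 of 2 fibroblast markers checked, was at 23.8 CPM, against 406 and 501 CPM in the SIVA-WT and SIVA-D160N libraries. The sum of COL1A1 and DCN over the lines was at most 406.5 CPM with SIVA-WT and 501 with SIVA-D160N, so the second marker, DCN, added little in those SKOV3 libraries. Parental libraries spanned 3.37 to 339 CPM by this sum. The part of COL1A1 in the SKOV3 values was not tested.

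Genes of the integrated stress response, to which INHBE belongs, were read from a list of 24, of which 23 passed the filter. The list was chosen with a lower level in SIVA-D160N cells already known from these data, so its direction is not independent evidence. By edgeR 0 of the 23 were called, and 17 were lower at an unadjusted p under 0.05, where 7.77% of all genes were. All 23 fitted values were negative, with a median log2 fold change of -0.58 against -0.01 for all genes. DESeq2 called 1 (NUPR1) and limma-voom 2 (NUPR1 and CHAC1).

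The smallest p belonged to NUPR1, a stress-induced chromatin protein (-2.17, SE 0.37, FDR 0.131), CHAC1, which degrades glutathione (-1.44, SE 0.28, FDR 0.131), the mitochondrial enzyme gene PCK2 (-0.998, SE 0.21, FDR 0.135) and asparagine synthetase, ASNS (-1.02, SE 0.22, FDR 0.149). In MDA-MB-231, where INHBE was lower, ASNS was at 694, 477 and 197 CPM and CHAC1 at 83.5, 74.1 and 17.9 CPM in parental, SIVA-WT and SIVA-D160N cells. In SKOV3, where INHBE had more counts with SIVA-D160N, ASNS was at 45.2, 26.9 and 21.2 CPM and CHAC1 at 10.5, 4.78 and 2.55 CPM. INHBE and these stress genes thus ran in the same direction in MDA-MB-231 and in opposite directions in SKOV3, by single libraries.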

How the data were processed

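RNA from 12 cell line samples was sequenced as stranded mRNA libraries. Per the submitters' processing notes and the study's methods, the authors checked reads with FastQC, aligned them to GRCh38 with STAR 2.5.3a and deposited raw counts for 57187 genes, without normalization. The annotation release and strand setting are not given in the sources used here. The deposited CPM table was not used. Every column matched a library (0 without one), and of 66 library pairs 0 were identical.

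Counts were fitted with edgeR 4.0.16 (R 4.3.3) by the quasi-likelihood method, with TMM normalization, the filter filterByExpr by condition (17211 genes kept) and terms for cell line and condition over all libraries. The line pairs the samples, since each line gave 1 library per condition. Deviations from the condition means correlated at r 0.929 to 0.968 between libraries of 1 line. Between different lines and conditions r was -0.433 to -0.191. Subtracting condition means itself pushes correlations between lines below 0, so that range is a description only. Thresholds were an FDR under 0.05 and a log2 fold change of 1.5, as in the study. For SIVA-D160N against control cells the study reports many more genes than the 1 of 17211 called here. Why the counts differ was not tested. Ratios within a line came with exact conditional binomial 95% intervals. The scripts were tested on simulated data. Exon lengths (union of exons) came from GENCODE release 44 lifted to GRCh37, another build than that of the counts, and positions and promoters from RefSeq. Alternatives were DESeq2 1.42.0, limma-voom (limma 3.58.1), other size factors, no filter, no replicate block and leaving out lines. Figures used matplotlib 3.10.9.

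The members and gene lists were chosen with earlier results of these data known. The text names the 10 members, SIVA1, of each list the 4 genes with the smallest p where fewer were called, and the 5 genes most like INHBE by each measure; INHBC, ERBB2 and the other markers serve as checks. For 1 gene of the pathway list the result is not reported here. P-values measure the spread between these libraries.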

Additional observations from a re-analysis of the deposited data

Results flagged for a closer look

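FST stood out by the sign of its log2 ratios of SIVA-D160N to parental cells, positive in both breast lines and negative in both ovarian lines. Neither ovarian line differed from its parental library beyond counting error, and OVCAR8 was close to level. The mean log2 ratio, with a prior count of 2, was lower by 2.28 in the ovarian lines (difference -2.28). This reading of 4 ratios was not tested, the interaction in the edgeR fit had an FDR of 1, and the ovarian values rest on 29 to 30 counts in OVCAR8 and 7 to 1 in SKOV3. Of 22 such sets checked 1 split this way, where chance gives 2.75.

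ACVR2B in SKOV3 lay far below the other 3 lines, with a log2 ratio to parental of -0.69 for SIVA-D160N and -0.62 for SIVA-WT. Both share the SKOV3 parental library, which had 678 ACVR2B counts. Of 60 sets checked 2 stood apart in this way, and chance gives about 1 in 20, or 3 here.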

How the results depend on the processing

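Under each alternative run, 0 of the 9 members passed both thresholds in the 3 comparisons of conditions, and all 9 differed between lines. Of 261 member values under alternatives, 238 kept their direction and 23 turned, none of them called and none above 0.345 in size. The breast-to-ovarian difference was called for 1 member, INHBA, with DESeq2 and for 1 when all genes with at least 1 count were fitted, and for 0 without the HCC1954 parental library. Between SIVA-D160N and parental cells, the fit of all genes with at least 1 count also called 1 pathway gene and 4 stress genes. These were BMP7, which had counts mainly in HCC1954, and NUPR1, FGF21, GDF15 and ATF3. In that comparison DESeq2 called 1 stress gene and limma-voom 2. The cause was not tested. Without the replicate block INHA turned to 0.063 between SIVA-D160N and SIVA-WT, and no call changed. Between the same groups ACVR1B was -0.002 with DESeq2 and -0.002 with RLE factors. FST between SIVA-WT and parental was -0.11 with DESeq2.

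Leaving out 1 line, or the HCC1954 parental library (an alternative chosen after seeing the data), gave ranges that cross 0. For SIVA-D160N vs parental ACVR1B ran from -0.058 to 0.041. For SIVA-WT vs parental INHBA ran from -0.11 to 0.426, INHBB from -0.054 to 0.39, FST from -0.342 to 0.701, FSTL3 from -0.146 to 0.249, ACVR1B from -0.045 to 0.049, ACVR2B from -0.183 to 0.055 and TGFBR3 from -0.152 to 0.282. For SIVA-D160N vs SIVA-WT INHA ran from -0.336 to 0.064, FST from -0.345 to 1.152, FSTL3 (without crossing 0) from 0.085 to 0.53, ACVR1B from -0.017 to 0.031 and ACVR2A from -0.068 to 0.014. The INHBA change in SIVA-D160N vs parental ran from 0.269 to 1.269 over all alternatives, with an FDR from 0.00351 to 1. The INHBE log2 ratio of SIVA-D160N to parental in MDA-MB-231 ran from -4.573 to -4.492 over 4 other prior counts and scalings. Few counts limit the reading of INHBE in HCC1954, INHBB and FST in SKOV3, INHBA in MDA-MB-231 and INHA in OVCAR8.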
